A study of Mus musculus with 4 samples.

Results

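A set of 9 genes of the myelin sheath was followed through snRNA-seq (single-nucleus RNA sequencing) of mouse hippocampus: Mbp, Mobp, Cnp, Ermn, Mal, Cldn11, Opalin, Mog and Mag. They were taken by symbol, and all 9 were found among the 32285 genes listed for each of the 4 libraries. The animals were female C57BL/6J mice, 8 weeks old at the start of 10 weeks with or without voluntary wheel running. The 4 groups were App NL-G-F knock-in with exercise, App NL-G-F knock-in without exercise, wild type (WT) with exercise and WT without exercise. The knock-in puts human amyloid-beta residues and Alzheimer-causing mutations into the mouse's App locus, without overexpression, and plaques form with age. The treatment protocol in the labels mentions a wheel for all samples, while titles and treatment labels mark 2 of them as without exercise. The number of animals behind a library is not given. Each group had 1 library, so no difference below has a replicate check, no test between groups was possible, and nuclei are not counted as replicates.

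Myelin is the membrane that oligodendrocytes wrap around axons, and its genes are switched on together as oligodendrocyte precursor cells (OPCs) mature, under transcription factors such as Sox10 and Myrf. Mbp (myelin basic protein) holds the cytoplasmic faces of compact myelin together, and its mRNA is carried out into the cell processes for local translation. Mobp encodes another small basic protein of compact myelin. Cnp encodes an enzyme of the cytoplasm-filled, non-compacted parts of the sheath, and Ermn (ermin) an actin-binding cytoskeletal protein. Mal is a proteolipid of membrane traffic, Cldn11 forms the tight junctions of the sheath, and Opalin is a membrane protein of its paranodal loops. Mog lies on the outermost surface and Mag on the innermost wrap that faces the axon. Nuclei hold unspliced and newly made RNA, and droplets can also capture RNA that leaked from other cells (free RNA). A UMI is a molecular tag that lets each captured RNA molecule be counted once.

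The sequence upstream of the start site was read for 8 of the 9 genes from RefSeq (GRCm38.p6, 250 bases before each annotated start). It was searched for ACAAAG, the core of sites bound by SOX-family factors such as Sox10, on both strands (CTTTGT is its reverse), and for the related ACAATG (reverse CATTGT). No match of one overlapped a match of the other in these 8 genes. Of 32851 RefSeq promoters, 16.5% held at least 1 match to ACAAAG, 0.137% held at least 3 and 1 held 6. That 1 promoter was the one of Mobp. The promoters of Cnp and Opalin and 2 of the 3 of Mag held 1 match each, and those of Mal, Cldn11, Mog and Ermn and the remaining one of Mag held none. Those 2 stretches of Mag overlap, and their match is the same site. ACAATG was found in 10.7% of all promoters and, among the 8 genes, only in that of Ermn. A match is a stretch of letters and was not tested for binding. Mobp is shown because its upstream stretch is so rich in matches and because it stood opposite in direction to most of the others in 3 of the 4 comparisons described here, and Cnp, Mog and Ermn because they were among those that differed most. Capitals mark the matches, each sequence runs 5′ to 3′ on the gene's strand, and each stops where the annotated gene begins.
Mobp, chr9:120149492-120149706, forward strand: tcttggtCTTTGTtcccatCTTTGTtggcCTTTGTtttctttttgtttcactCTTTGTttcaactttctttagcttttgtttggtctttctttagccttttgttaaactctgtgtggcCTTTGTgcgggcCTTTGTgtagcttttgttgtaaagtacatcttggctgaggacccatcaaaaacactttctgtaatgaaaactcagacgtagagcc
Cnp, chr11:100574689-100574903, forward strand: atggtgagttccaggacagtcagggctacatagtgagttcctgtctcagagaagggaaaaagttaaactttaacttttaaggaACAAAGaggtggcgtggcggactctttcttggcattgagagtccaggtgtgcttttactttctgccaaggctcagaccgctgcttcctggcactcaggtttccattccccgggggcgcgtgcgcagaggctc
Mog, chr17:37023399-37023648, reverse strand: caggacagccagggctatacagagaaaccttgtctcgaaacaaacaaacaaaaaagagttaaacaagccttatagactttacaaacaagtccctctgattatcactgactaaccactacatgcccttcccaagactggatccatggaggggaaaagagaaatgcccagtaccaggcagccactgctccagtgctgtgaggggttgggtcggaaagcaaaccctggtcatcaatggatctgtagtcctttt
Ermn, chr2:58052865-58053114, reverse strand: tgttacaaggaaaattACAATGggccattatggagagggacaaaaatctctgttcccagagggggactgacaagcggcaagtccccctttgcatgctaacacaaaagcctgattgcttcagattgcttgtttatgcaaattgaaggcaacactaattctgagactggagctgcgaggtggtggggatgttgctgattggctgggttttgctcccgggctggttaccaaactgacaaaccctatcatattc

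The 9 genes lie on 8 chromosomes (GENCODE release M21, GRCm38). Mbp spans 110 kb on chromosome 18 (82475146 to 82585637, forward strand), and Mobp 31.8 kb on chromosome 9 (120149707 to 120181484, forward). Cnp spans 16.8 kb on chromosome 11 (100574904 to 100591729, forward), and Ermn, the shortest, 7.75 kb on chromosome 2 (58045113 to 58052864, reverse). Mal also lies on chromosome 2 (127633226 to 127656695, reverse, 23.5 kb), Cldn11 on chromosome 3 (31149920 to 31164324, forward, 14.4 kb) and Opalin on chromosome 19 (41061710 to 41077113, reverse, 15.4 kb). Mog lies on chromosome 17 (37010743 to 37023398, reverse, 12.7 kb) and Mag on chromosome 7 (30899176 to 30914873, reverse, 15.7 kb). An exon of Cnp overlaps Dnajc7 on the opposite strand, an exon of Ermn overlaps Galnt5 on the opposite strand, and an exon of Mobp overlaps the transcript Gm38642 on the same strand. The sources used here do not say whether counting used strand, so the values of Cnp and Ermn are uncertain to that extent. Reads from the stretch that Mobp shares with Gm38642 cannot be told apart by strand in any case.

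The libraries held 7203 to 11514 barcodes and 64158446 to 91676884 UMIs, and 6508 to 10213 nuclei were kept. Each pair of libraries shared 20 to 42 barcodes. Clusters were made and named without the 9 genes. Oligodendrocyte-like nuclei (called oligodendrocytes below) numbered 1423 in the knock-in with exercise (16.3% of kept nuclei), 1509 in the knock-in without exercise (16.3%), 688 in WT with exercise (10.6%) and 1471 in WT without exercise (14.4%). With a minimum of 1000 genes per nucleus these shares were 16.7%, 4.16%, 6.60% and 11.9%. All 14 oligodendrocyte markers other than the 9 genes were detected in these nuclei of every library, with summed levels of 11026, 12440, 13655 and 13519 CPM in the same order (CPM, counts per 1000000 UMIs of the class). They fell into 2 clusters that followed the library: cluster 1 took 97.6% of them in the knock-in with exercise, and cluster 2 took 100% in the knock-in without exercise, 96.8% in WT with exercise and 93.6% in WT without exercise. The libraries also differed in depth and RNA makeup. Median UMIs per oligodendrocyte were 2812, 1355, 1740 and 1793, and the nuclear RNA Malat1 took 4.21%, 16.1%, 9.59% and 6.17% of their UMIs. The part of depth and of Malat1 in the differences below was not tested.

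In oligodendrocytes the sum of the 9 genes was lowest in the knock-in with exercise and highest in the knock-in without exercise. It stood at 5970 CPM in the knock-in with exercise, 8491 CPM in the knock-in without exercise, 7016 CPM in WT with exercise and 7098 CPM in WT without exercise. The exact Poisson 95% intervals of these sums were 5897 to 6044, 8370 to 8612, 6872 to 7163 and 7000 to 7198 CPM, and only the WT pair overlapped. Intervals here and below cover counting error only. Every oligodendrocyte of every library held at least 1 UMI of the 9 genes, and after thinning each nucleus to 1000 UMIs 99.4% to 99.9% still did.

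In CPM over nuclei of all depths, the compact-myelin genes Mbp and Mobp stayed within a narrow range. Per nucleus they did not, at 4.13 to 7.24 UMIs for Mbp and 1.40 to 3.41 for Mobp. Mbp stood at 2434 CPM in the knock-in with exercise, 2778 CPM in the knock-in without exercise, 2863 CPM in WT with exercise and 2668 CPM in WT without exercise. The knock-in with exercise was the lowest of the 4 and the WT library with exercise the highest, and the intervals of the knock-in without exercise overlapped those of both WT libraries. Mobp stood at 1147, 940, 966 and 1163 CPM in the same order. It was high in the knock-in with exercise and in WT without exercise, whose intervals overlapped, and low in the other 2, whose intervals overlapped too.

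Cnp and Ermn, the cytoplasmic and cytoskeletal members, were spread more widely in CPM. Cnp stood at 117 CPM in the knock-in with exercise, 426 CPM in the knock-in without exercise, 176 CPM in WT with exercise and 225 CPM in WT without exercise. Ermn stood at 127, 383, 231 and 171 CPM in the same order. In both genes the knock-in without exercise was the highest and the knock-in with exercise the lowest, with no interval of one touching another, and the 2 WT libraries lay between in opposite orders.

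Of the membrane genes, Mal stood at 192 CPM in the knock-in with exercise, 600.5 CPM in the knock-in without exercise, 310 CPM in WT with exercise and 332 CPM in WT without exercise. The WT intervals overlapped, and those of the knock-in libraries lay on either side of them. Cldn11 stood at 327, 511, 363 and 371 CPM and Opalin at 271, 432, 362 and 324 CPM in the same order. Here too the knock-in without exercise was the highest and the knock-in with exercise the lowest, over a smaller range, and the intervals of Cldn11 in the knock-in with exercise overlapped those in WT with exercise.

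The surface gene Mog stood at 550 CPM in the knock-in with exercise, 1406 CPM in the knock-in without exercise, 1011 CPM in WT with exercise and 899 CPM in WT without exercise, with no overlap between any of the intervals. Mag, on the axonal side, stood at 805, 1013, 735 and 945 CPM in the same order. Mag was higher in each library without exercise than in the exercised library of its genotype.

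**Figure D1:**
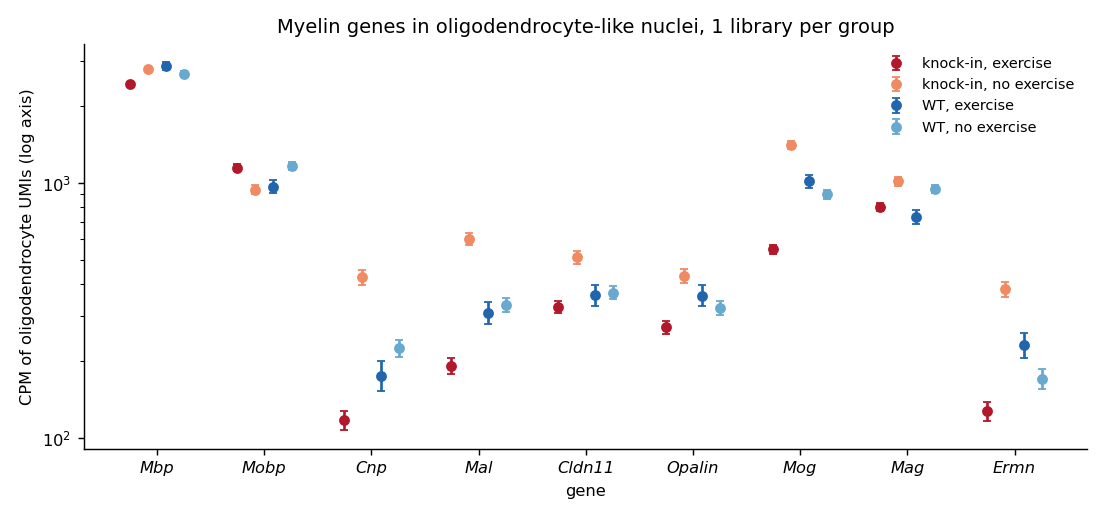
CPM (log axis) of each of the 9 genes in oligodendrocyte-like nuclei, 1 point per library with its exact Poisson 95% interval. Cnp, Mal, Mog and Ermn run from the knock-in with exercise at the bottom to the knock-in without exercise at the top, while Mbp and Mobp stay close together.

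Counted per nucleus instead of per 1000000 UMIs, the picture differed in the knock-in with exercise, whose nuclei were deeper. Mbp then stood at 7.24 UMIs per nucleus in the knock-in with exercise, 4.13 in the knock-in without exercise, 5.35 in WT with exercise and 5.04 in WT without exercise. Mobp stood at 3.41, 1.40, 1.80 and 2.2 UMIs per nucleus. Both were thus highest in the knock-in with exercise, as was the sum of the 9 genes, at 17.8, 12.6, 13.1 and 13.4 UMIs per nucleus. Cldn11 stood at 0.972 UMIs per nucleus in the knock-in with exercise and 0.759 in the knock-in without exercise, and Opalin at 0.807 and 0.642. Mag, at 2.39 UMIs per nucleus, was also highest in the knock-in with exercise. So Cldn11, Opalin and Mag turned as well as Mbp. Against WT with exercise, Mbp, Cldn11, Opalin and Cnp likewise stood higher per nucleus in the knock-in with exercise, though lower in CPM. Cnp, at 0.349, 0.634, 0.329 and 0.425, was highest in the knock-in without exercise on either scale. The log2 ratios below are of CPM.

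Between the knock-in and WT with exercise, 7 of the 9 genes were lower in the knock-in, with a median log2 ratio of -0.42, where the median of all genes was 0.07. Of these, 3 were at least 1.5 times lower: Mog at -0.88 (95% interval -0.98 to -0.78, exact conditional binomial), Ermn at -0.86 (-1.07 to -0.65) and Mal at -0.69 (-0.87 to -0.51). Of 9547 genes measured with at least 50 UMIs, 12.1% were at least 1.5 times lower and 21.3% at least 1.5 times higher. Mobp at 0.25 (0.16 to 0.34) and Mag at 0.13 (0.03 to 0.24) stood higher in the knock-in. Counted per nucleus, Mog, Ermn and Mal were still lower in the knock-in, but none of them by 1.5 times, and Mal was nearly level.

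In the absence of exercise the knock-in stood the other way round, with 8 of the 9 genes higher than in WT and a median log2 ratio of 0.46, against -0.10 over all genes. Of these, 4 were at least 1.5 times higher: Ermn at 1.17 (1.0 to 1.33), Cnp at 0.92 (0.78 to 1.07), Mal at 0.85 (0.73 to 0.98) and Mog at 0.65 (0.57 to 0.72). Of 9556 genes, 14.4% were at least 1.5 times higher and 13.7% at least 1.5 times lower. Mobp was lower in the knock-in, at -0.31 (-0.39 to -0.23), and Mbp, at 0.06 (0.01 to 0.11), was nearly level.

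Within the knock-in, 8 of the 9 genes were lower with exercise than without, with a median log2 ratio of -0.67 against 0.06 over all genes. Of these, 6 were at least 1.5 times lower, and of 10237 genes 22.8% were so and 24.0% were at least 1.5 times higher. Cnp was at -1.86 (-2.02 to -1.70), Mal at -1.65 (-1.77 to -1.52), Ermn at -1.59 (-1.75 to -1.43) and Mog at -1.35 (-1.43 to -1.28). Opalin at -0.67 (-0.80 to -0.55) and Cldn11 at -0.64 (-0.76 to -0.53) were just past the limit, and Mag at -0.33 (-0.41 to -0.26) and Mbp at -0.19 (-0.24 to -0.14) were short of it. Mobp was higher with exercise, at 0.29 (0.21 to 0.36). The comparison shares 1 knock-in library with each of the 2 before it, so their values are not independent.

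Within WT no gene reached 1.5 times in either direction between exercise and none, and the median log2 ratio was -0.03, against -0.10 over all genes. Of 8669 genes, 2.58% were at least 1.5 times higher and 10.2% at least 1.5 times lower. Ermn at 0.44 (0.22 to 0.65), Mog at 0.17 (0.07 to 0.27) and Mbp at 0.10 (0.04 to 0.16) were higher with exercise. Mag at -0.36 (-0.47 to -0.25), Cnp at -0.35 (-0.58 to -0.13) and Mobp at -0.27 (-0.36 to -0.17) were lower, and the intervals of Mal, Cldn11 and Opalin included 0.

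**Figure D2:**
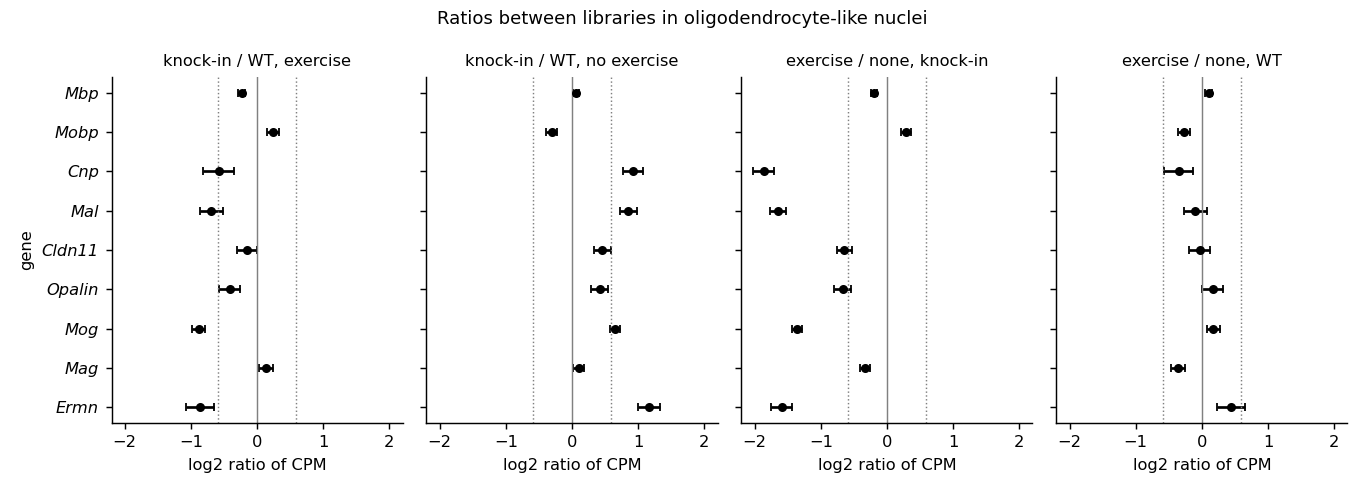
Log2 ratio of CPM of each of the 9 genes in oligodendrocyte-like nuclei in the 4 comparisons, with 95% intervals of counting error; dotted lines mark 1.5 times. Cnp lies at -1.86 for exercise in the knock-in and Ermn at 1.17 for the knock-in against WT without exercise, while no gene passes a dotted line within WT.

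Nuclei of like depth were also compared, an alternative chosen after the data were seen. Oligodendrocytes of 1841 to 2479.5 UMIs numbered 362 in the knock-in with exercise and 161 in the knock-in without exercise. In these, Cnp stood at 125 CPM with exercise and 372 CPM without, Mal at 181 and 568 CPM, Mog at 486 and 1533 CPM, and Ermn at 89.4 and 457 CPM. The median log2 ratio of the 9 genes was -0.84 in these nuclei. There 6 genes were at least 1.5 times lower with exercise and none higher, beside 15.4% and 32.8% of 4253 genes. They were not the same 6: Mbp, at 2130 CPM with exercise and 3196 CPM without, was just past the limit at -0.59, and Opalin, at 256 and 378 CPM, was just short of it at -0.56. Mobp, at 1039 CPM with exercise and 1140 CPM without, stood the other way there, at a log2 ratio of -0.13.

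The ratios went with gene length across the transcriptome. For exercise in the knock-in, Spearman's rho between gene length and log2 ratio over 10233 genes was 0.58, a description across genes that share 2 libraries. With the genes in 4 equal bins of length, the shortest bin, up to 14.2 kb, had a median of -0.73 and the longest, above 78.4 kb, a median of 0.58. Ermn and Mog belong to the shortest bin, and their -1.59 and -1.35 lay below its median. Cldn11, Opalin, Mag, Cnp, Mal and Mobp belong to the next bin, up to 32.2 kb, whose median was -0.11, from which Cnp and Mal stood furthest. Mbp, in the longest bin, stood at -0.19. For the knock-in against WT without exercise the rho was -0.55 and the bins' medians ran from 0.43 for the shortest to -0.39 for the longest, beside 1.17 for Ermn and 0.06 for Mbp. It was 0.33 for the knock-in against WT with exercise and -0.06 for exercise in WT. The part of gene length in the ratios of the 9 genes was not tested.

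**Figure D3:**
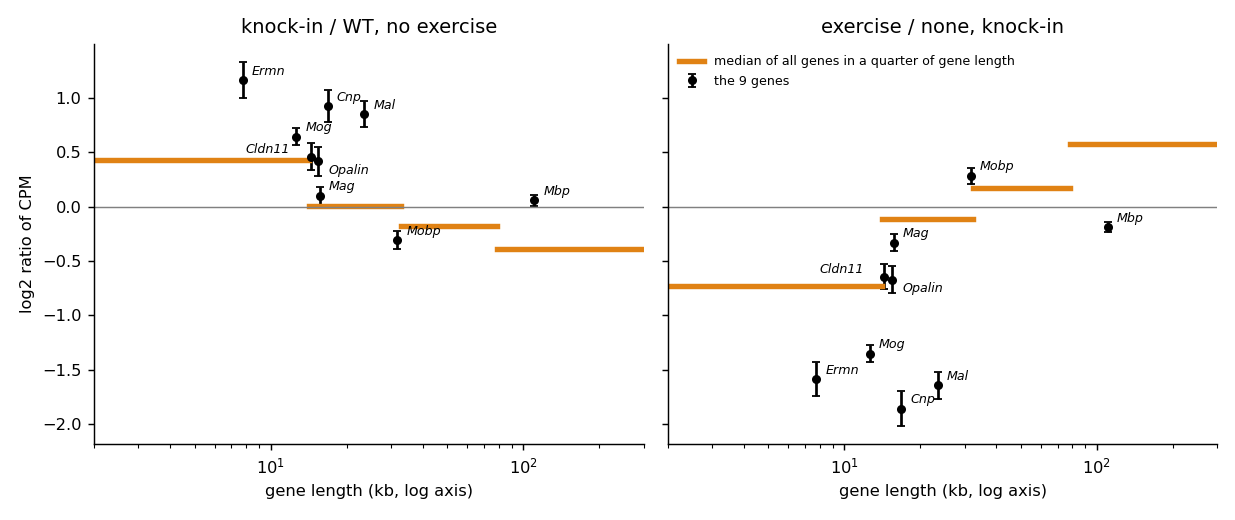
Log2 ratio of CPM of the 9 genes in oligodendrocyte-like nuclei (points, 95% counting intervals) against gene length (kb, log axis), with the median of all genes in each of 4 bins of gene length (bars, drawn from 2 to 300 kb). The bars run from 0.43 down to -0.39 in the left panel and from -0.73 up to 0.58 in the right one, and Cnp and Mal lie far from the bar of their bin in both.

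Other oligodendrocyte genes, given in lists chosen with earlier results of these data known, are set beside the 9 in the same nuclei. Of 24 genes of myelin structure, 10 were at least 1.5 times lower and 2 higher with exercise in the knock-in, beside 22.8% and 24.0% of all genes, with a median log2 ratio of -0.40. The lower ones included Cryab, a small heat shock protein, at -2.30 and Gjb1, a gap junction protein, at -1.72. Nfasc, an adhesion molecule of the axon-glia junction, stood at 0.64 and Ninj2 at 0.91. Without exercise, 5 of the 24 were at least 1.5 times higher and 1 lower in the knock-in than in WT (median 0.08), beside 14.4% and 13.7% of all genes. With exercise 1 was higher and 5 lower (median -0.14), beside 21.3% and 12.1%. Within WT none was higher and 3 lower with exercise (median -0.07), beside 2.58% and 10.2%.

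Of 14 genes of myelin lipid synthesis, 7 were at least 1.5 times lower and none higher with exercise in the knock-in (median -0.49), beside 22.8% and 24.0% of all genes. Aspa, which supplies acetate for lipid synthesis, stood at 646 CPM with exercise and 1211 CPM without (-0.91), Ugt8a, which makes galactosylceramide, at 422 and 648 CPM (-0.62), and Fa2h, a fatty acid hydroxylase, at 579 and 565 CPM (0.03). Of 13 transcription regulators, 7 were at least 1.5 times lower and none higher in that comparison (median -0.71), beside the same shares of all genes. Among them were Olig1 at -2.0 and Sox10 at -0.97, whereas Myrf stood at 0.47 and the abundant St18 at 0.08. In the knock-in against WT without exercise Sox10 stood at 0.57, Olig1 at 0.75 and Myrf at -0.37. Ptgds, a prostaglandin synthase made by mature oligodendrocytes and by cells of the meninges and choroid plexus, stood at 378, 3611, 971 and 1195 CPM in the knock-in with exercise, the knock-in without exercise, WT with exercise and WT without exercise. In the same nuclei the 6 choroid plexus markers summed to 19.9, 277, 14.0 and 17.6 CPM, with Otx2 at 0 in every library, and their part in these values was not tested.

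Along the oligodendrocyte lineage the 9 genes did not reach the mature level at the same stage. The 61 committed-OPC-like nuclei (26, 15, 4 and 16 in the knock-in with exercise, the knock-in without exercise, WT with exercise and WT without exercise) already held Mbp at 2784 CPM over the 4 libraries (2597 to 2980), beside 2621 CPM in oligodendrocytes. Cnp stood at 111 CPM in them (76.6 to 156), which was 50.9% of its oligodendrocyte level, Cldn11 at 158 CPM (41.5%) and Mag at 290 CPM (33.0%). Mog stood at 47.2 CPM (25.8 to 79.2, 5.36%), and Mobp at 23.6 CPM from 7 UMIs (2.17%). Mal, Opalin and Ermn had 1 UMI each in all 61 nuclei, below the 10.1 CPM that 3 counts would give. So over the 4 libraries Mbp stood at 106% of its oligodendrocyte level at this stage. Cnp, Cldn11 and Mag stood at 33.0% to 50.9% of theirs, and Mal, Opalin, Ermn and Mobp at 1.02% to 2.17%. Within single libraries Mbp ran from 44.5% in WT with exercise (4 nuclei) to 126% in the knock-in with exercise. It was below its oligodendrocyte level in both WT libraries.

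By library, Mbp in committed-OPC-like nuclei stood at 3063, 2924, 1273 and 2358 CPM in the knock-in with exercise, the knock-in without exercise, WT with exercise and WT without exercise, where the 1273 CPM rest on 4 nuclei and 22 UMIs. In the 444 OPC-like nuclei Mbp stood at 103 CPM (87.8 to 119), 3.91% of the oligodendrocyte level, and the other genes at 5.40 to 27.0 CPM. The sum of the 9 genes in OPC-like nuclei stood at 170, 607, 129 and 207 CPM in the order of the libraries above, against 168, 152, 86.8 and 106 CPM in neurons, so in the knock-in with exercise the 2 classes were within counting error of each other.

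**Figure D4:**
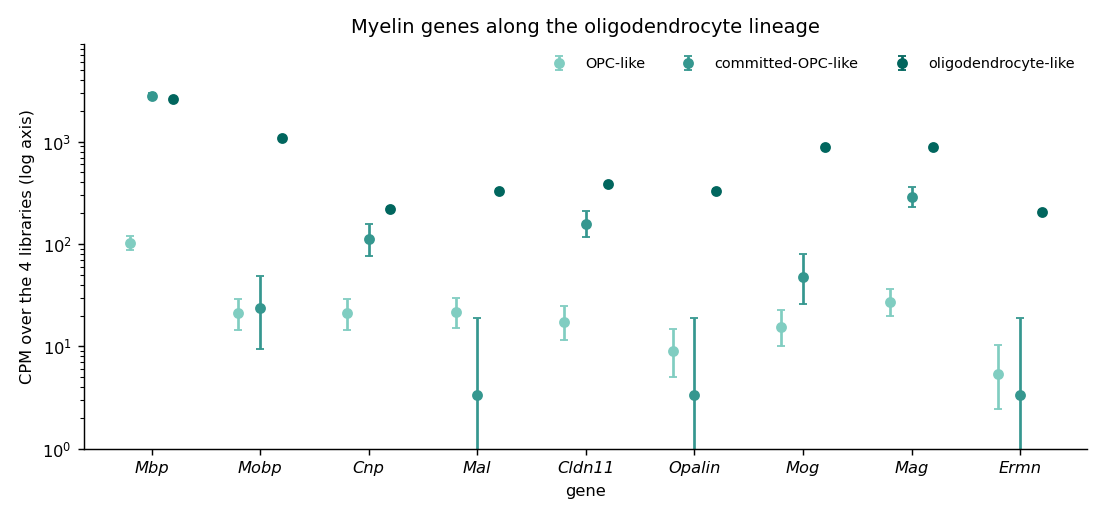
CPM (log axis) of the 9 genes over the 4 libraries in OPC-like, committed-OPC-like and oligodendrocyte-like nuclei, with exact Poisson 95% intervals; intervals reaching under 1 CPM are drawn to the edge. Mbp is at 2784 CPM in committed-OPC-like and 2621 CPM in oligodendrocyte-like nuclei, whereas Mal, Opalin and Ermn rest on 1 UMI each in the middle stage.

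In neurons, taken as granule, CA1, CA3 and inhibitory neurons together, UMIs of the 9 genes were found at a low level in every library. Their sum stood at 168 CPM in the knock-in with exercise, 152 CPM in the knock-in without exercise, 86.8 CPM in WT with exercise and 106 CPM in WT without exercise. These levels were 2.81%, 1.78%, 1.24% and 1.5% of those in oligodendrocytes of the same library. At least 1 such UMI was found in 69.0%, 56.9%, 50.1% and 53.3% of neurons, whose median depths were 7309, 5725, 8367 and 7423 UMIs. Thinned to 1000 UMIs per nucleus, the shares were 19.5%, 15.8%, 8.71% and 11.7%. No nuclei were left out by the thinning, since every kept nucleus held at least 1000 UMIs.

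All 9 genes were at least 8 times higher in oligodendrocytes than in neurons in each of the 4 libraries, where 3.03%, 3.50%, 3.62% and 3.61% of all genes measured were. The folds ran from 20.9 for Cnp in the knock-in with exercise to 311 for Mog in WT with exercise. The level in neurons as a share of that in oligodendrocytes differed between the genes. Cnp stood in neurons at 3.46% to 4.78% of its oligodendrocyte level over the 4 libraries, Mbp at 2.01% to 4.69% and Mal at 1.49% to 3.53%. Mobp stood at 0.408% to 0.929% and Mog at 0.322% to 1.08%. Cldn11, Ermn, Mag and Opalin ranged over 0.372% to 2.54%.

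Mbp took a different share of the 9 genes in neurons than in oligodendrocytes. It made up 40.8% of the UMIs of the 9 genes in oligodendrocytes of the knock-in with exercise, 32.7% in the knock-in without exercise, 40.8% in WT with exercise and 37.6% in WT without exercise. In granule neurons it made up 71.4% (exact Clopper-Pearson 95% interval 70.1 to 72.7), 42.8% (40.8 to 44.7), 73.9% (71.7 to 76.0) and 69.0% (67.3 to 70.7) in the same order. Granule and CA1 neurons thus held Mbp at a larger share than oligodendrocytes in all 4 libraries, and least so in the knock-in without exercise. In inhibitory neurons the shares were 50.7%, 25.1%, 45.7% and 42.2%, and in CA3 neurons 54.6%, 31.6%, 57.0% and 51.9%. The intervals of granule and inhibitory neurons did not overlap in any library. The source of these UMIs was not tested.

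Per nucleus, granule neurons held 106, 40.8, 64.0 and 66.9 Mbp UMIs per 100 nuclei in the knock-in with exercise, the knock-in without exercise, WT with exercise and WT without exercise. Inhibitory neurons, which are deeper, held 67.5, 27.3, 49.9 and 39.0. The other 8 genes together ran the opposite way, at 42.5, 54.6, 22.6 and 30.02 UMIs per 100 granule neurons and 65.7, 81.3, 59.3 and 53.5 per 100 inhibitory neurons. Per nucleus, Mbp was thus more frequent in granule neurons and the other 8 genes in inhibitory neurons in every library. Per 1000000 UMIs the other 8 genes stood at 66.2, 112, 31.7 and 45.9 CPM in granule neurons. In inhibitory neurons they stood at 61.1, 114, 51.5 and 55.7 CPM. The order thus turned in the knock-in with exercise and was nearly level in the knock-in without exercise. These inhibitory levels, per nucleus and in CPM, rest in part on few nuclei. In the same order of libraries, 14, 14, 14 and 16 inhibitory neurons held at least 10 UMIs of the whole set. They held 31.6%, 21.3%, 45.7% and 34.0% of its UMIs in this class. Mbp made up 48.1%, 26.3%, 39.4% and 40.9% of theirs, and the other 8 genes the rest. Without the neurons past that limit, the sum of the 9 genes in inhibitory neurons stood at 88.9, 123, 55.3 and 65.5 CPM. Mbp made up 51.9%, 24.8%, 51.0% and 42.8% of it. In granule neurons the sum then stood at 229, 196, 118 and 147 CPM, with Mbp at 71.6%, 42.8%, 75.1% and 68.9%. The other 8 genes were thus higher in CPM in granule neurons in every library, so the order in WT turned. Per nucleus both orders stayed as they were.

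**Figure D5:**
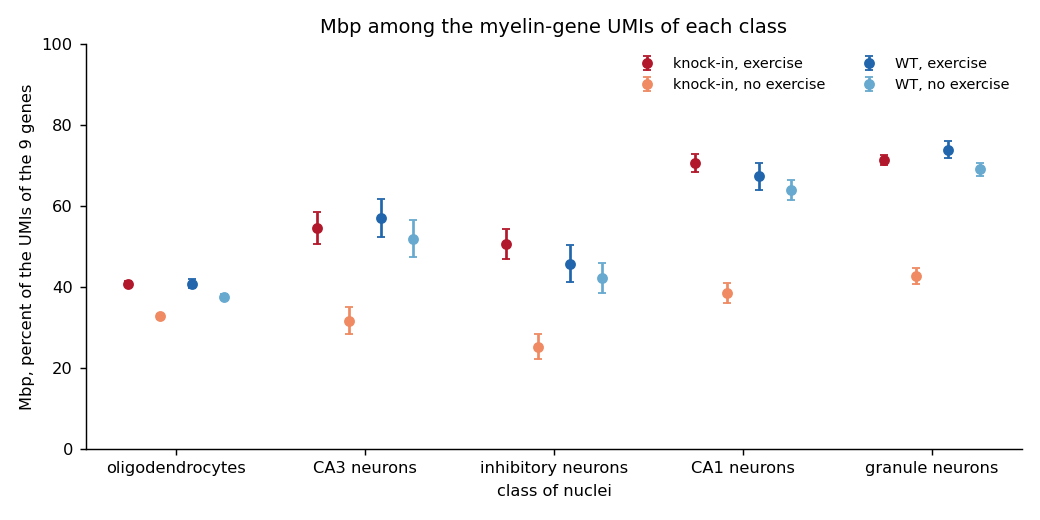
Percent of the UMIs of the 9 genes that were Mbp in oligodendrocytes and in each class of neurons, 1 point per library with its exact Clopper-Pearson 95% interval. Granule neurons lie at 42.8% to 73.9% and oligodendrocytes at 32.7% to 40.8%, and the knock-in without exercise is the lowest in every class.

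The level in neurons stood at a like share of the whole library's in all 4 groups. Over all kept nuclei the 9 genes summed to 595, 534, 301 and 381 CPM in the knock-in with exercise, the knock-in without exercise, WT with exercise and WT without exercise, and the level in neurons was 28.2%, 28.4%, 28.9% and 27.9% of these. For single genes this share differed more between the libraries, for example 38.7%, 30.4%, 37.4% and 38.7% for Mbp and 11.3%, 14.7%, 13.8% and 9.58% for Mobp. The whole library includes the neurons themselves, with 46837219 of 64650374 UMIs in the knock-in with exercise, so these levels are not independent. It also includes the oligodendrocytes, which held 65.7%, 65.0%, 50.5% and 67.8% of all UMIs of the 9 genes.

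Between the groups, 8 of the 9 genes in neurons had higher knock-in than WT levels both with exercise (median log2 ratio 0.99) and without (1.33), where the medians of all genes in neurons were 0.24 and -0.03. With exercise 6 were at least 1.5 times higher and none lower, beside 24.7% and 7.54% of 15641 genes. Without exercise 8 were higher and none lower, beside 14.8% and 8.5% of 15805 genes. Mog stood in neurons at 5.96 CPM in the knock-in with exercise and 3.25 CPM in WT with exercise, and at 11.4 CPM in the knock-in without exercise and 3.67 CPM in WT without exercise. The exceptions were Cnp with exercise, at -0.11 (-0.37 to 0.14), and Mbp without, at -0.23 (-0.31 to -0.15). With exercise in the knock-in, Mbp and Mobp stood higher and the other 7 genes lower. Mbp stood at 114 CPM with exercise and 56.7 CPM without (log2 ratio 1.01, 0.94 to 1.08), while Mal stood at 6.04 and 21.2 CPM (-1.81, -2.01 to -1.61) and Cnp at 5.62 and 17.8 CPM (-1.67, -1.88 to -1.46). There 1 gene was at least 1.5 times higher and 4 were lower, beside 23.3% and 19.3% of all genes. Within WT none was at least 1.5 times higher and 3 were lower with exercise, beside 2.08% and 7.32% of all genes. Over the whole library Mbp stood at 187 CPM in the knock-in without exercise and 172 CPM in WT without exercise, the opposite order to that in neurons, where it stood at 56.7 and 66.6 CPM. The part of free RNA in these values was not tested.

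A few neurons held far more of these UMIs than the others. Neurons with at least 10 UMIs of the 9 genes, a limit chosen after the values were seen, included 14, 14, 14 and 16 inhibitory neurons in the knock-in with exercise, the knock-in without exercise, WT with exercise and WT without exercise. These held 31.6%, 21.3%, 45.7% and 34.0% of the UMIs of the 9 genes in inhibitory neurons. Mbp made up 48.1%, 26.3%, 39.4% and 40.9% of theirs. Without them the sum in inhibitory neurons stood at 88.9, 123, 55.3 and 65.5 CPM, where it was 124, 152, 94.8 and 96.3 CPM with them. In granule neurons, where 5, 0, 5 and 3 nuclei passed that limit, the sum stood at 229, 196, 118 and 147 CPM without them and at 232, 196, 121 and 148 CPM with them.

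Astrocyte-like nuclei showed a pattern of their own. The sum of the 9 genes stood at 980 CPM in the knock-in with exercise (110 nuclei), 546 CPM in the knock-in without exercise (64 nuclei), 992 CPM in WT with exercise (337 nuclei) and 408 CPM in WT without exercise (335 nuclei), so both exercised libraries were above both others. In the knock-in with exercise 8 nuclei with at least 10 such UMIs held 76.4% of them, and in WT with exercise 16 nuclei held 75.5%. In these nuclei 70.1% and 71.9% of the UMIs were Mbp and 23.3% and 20.2% Mobp, which left 6.64% and 7.95% for the other 7 genes. In oligodendrocytes of these libraries 40.8% and 40.8% were Mbp and 19.2% and 13.8% Mobp. Without the nuclei past the limit the sums were 281, 482, 275 and 308 CPM, and the exercised libraries no longer stood above the others. In the knock-in with exercise the median depth of these nuclei was 7912 UMIs, against 2974 UMIs in the other astrocytes, and the part of doublets was not tested.

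Mbp and Mobp also made up most of the UMIs in cluster 23, an unnamed group of 471 nuclei whose leading genes were Ttr and mitochondrial transcripts. Mbp stood there at 419 CPM and Mobp at 106 CPM of a sum of 583 CPM, and Opalin at 3.71 CPM and Mog at 7.86 CPM. Cluster 26, 191 unnamed nuclei with a median of 6915 UMIs and leading genes that included Aspa, Opalin and Mobp, stood at 1666 CPM, with Mog at 193 CPM and Mag at 209 CPM. By markers it matched granule neurons best, with 6 of theirs. Cluster 6 held 40 nuclei, 39 of them of the knock-in without exercise, at 1194 CPM. Its best match by markers was CA1 neurons, with 5 of theirs. Microglia-like nuclei stood at 462, 960, 282 and 495 CPM for the 9 genes in the knock-in with exercise, the knock-in without exercise, WT with exercise and WT without exercise, where the 282 CPM rest on 25 nuclei and 14 UMIs. In the same order, 10, 6, 0 and 3 microglia held at least 10 such UMIs. They held 39.8%, 44.2%, 0% and 40.2% of these UMIs in this class. Without them the sums were 293, 595, 282 and 309 CPM.

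Across 41 profiles (11 classes in up to 4 libraries, each with at least 30 nuclei), 13576 genes were compared by Pearson's r of their log2(CPM + 1) with the mean of the 9. Genes among the most alike were C030029H02Rik, Kctd13, Trf (transferrin, an iron carrier that oligodendrocytes make), Cdc37l1, Gm19500, Il33 (a cytokine stored in nuclei), Qdpr, Dbndd2 and Rtn4 (Nogo, an inhibitor of neurite growth), with r of 0.93 to 0.94. Profiles of a library share its depth and free RNA, so these r values are descriptions. Of the 9 genes, Mog (0.97) and Mag (0.96) followed the mean most closely and Ermn (0.88) least, and they are part of that mean.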

How the data were processed

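Per the labels' protocols, nuclei from snap-frozen hippocampus were made into 10x Chromium 3' v3.1 libraries. The authors deposited raw counts (UMIs of each gene in each barcode). Cell Ranger 5.0.1 stands in the matrix headers, while version 3.1.0, with mm10, stands in the submitters' processing notes; intron and strand settings are not given in the sources used here. Nuclei were kept from 500 genes and 1000 UMIs upward where mitochondrial UMIs stayed below 5%, and the highest doublet scores against simulated pairs were left out at 0.8% per 1000 nuclei; since 41.0% to 59.3% of simulated pairs scored above the limit, some doublets remain. Clustering (scanpy 1.11.5; 2000 variable genes, 30 components, 15 neighbours, Leiden resolution 1.0, no integration) left the 9 genes out. A class name means nuclei like that type and needed at least 4 markers. UMIs were summed per class and library and scaled to CPM, with exact 95% intervals for counting error. Genes were called at 1.5 times between groups and 8 times between classes, among those with at least 50 UMIs over the samples compared. The ratio calculation was tested on simulated data. The 9 genes, other lists and markers were chosen with earlier results of these data known. All 9 genes are named, of each other list the 3 highest in oligodendrocytes or those past 1.5 times, and the 10 genes most like the 9; only examples of these are printed, and 1 gene is not reported here. Alternatives included edgeR 4.0.16 TMM factors. Of the gene identifiers, 32158 of 32285 matched GENCODE M21.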

Additional observations from a re-analysis of the deposited data

Results flagged for a closer look

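In oligodendrocytes, 4 of the 9 genes stood in opposite directions with exercise in the knock-in and in WT, with both counting intervals away from 0, beside 10.8% of 8640 genes that did so. The 10.8% is not a like share, because intervals narrow with more UMIs. Mbp held 27630 UMIs in these nuclei over the 4 libraries, and most of the 8640 genes held fewer. The log2 ratio in the knock-in minus that in WT was -2.03 for Ermn (-1.59 in the knock-in and 0.44 in WT), -1.52 for Mog (-1.35 and 0.17), 0.55 for Mobp (0.29 and -0.27) and -0.29 for Mbp (-0.19 and 0.10). Counted per nucleus, Mbp stood higher with exercise in both genotypes. In nuclei of matched depth Mobp stood lower with exercise in both, at -0.13 in the knock-in and -0.36 in WT. With 1 library per group the difference between genotypes was not tested.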

How the results depend on the processing

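No paired analysis was possible because each group has 1 library, and for the same reason no replicate could be left out. Of the 9 genes in oligodendrocytes, those at least 1.5 times apart in CPM kept their direction under the 12 alternatives run. The ratios per nucleus are not among these. In them Cldn11 (0.36) and Opalin (0.33) turned for exercise in the knock-in, as did Mag and Mbp, which were short of 1.5 times in CPM. With 1000 genes per nucleus as the minimum, 4 and not 6 were at least 1.5 times lower with exercise in the knock-in. Cldn11 with exercise in WT (-0.03), whose interval includes 0, turned slightly positive under the other scalings. With totals that leave out mitochondrial and the 50 highest genes, the median log2 ratio of the 9 genes was 0.58 for the knock-in against WT without exercise (0.46 as reported) and -0.84 for exercise in the knock-in (-0.67). In nuclei of matched depth, chosen after the data were seen, that median was -0.84 and Mobp reversed to -0.13 (0.29). Thinned to 1000 UMIs, 1 gene was at least 1.5 times lower with exercise in WT (0).

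The shares of all genes past 1.5 times in oligodendrocytes depended on the minimum of 50 UMIs: with exercise in WT 2.58% higher was 0.672% at 200 UMIs and 13.4% with no minimum, and for the knock-in against WT with exercise 12.1% lower was 6.53% and 23.7%. The named genes of the other lists were not recomputed.

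The summed level in neurons moved more. For the knock-in against WT with exercise its log2 ratio, 0.95, was 0.80 with all doublets kept, 0.86 at resolution 2.0, 0.86 with 4000 variable genes, 0.87 with the 9 genes kept among the variable genes, 0.76 with TMM factors, 0.74 with median-of-ratios factors, 0.84 with the reduced totals, 1.33 when thinned and 1.20 as a mean over nuclei. Without exercise it was 0.51, and 0.42 with all doublets kept, 0.61 at resolution 2.0 and 0.62 with the reduced totals. For exercise in the knock-in, 0.15, it was 0.074 with all doublets kept, 0.065 with 4000 variable genes, 0.020 with the 9 genes kept, 0.082 with TMM and 0.077 with median-of-ratios factors, 0.0043 with the reduced totals, 0.40 when thinned and 0.38 as a mean over nuclei, and it reversed to -0.049 at resolution 2.0, so its direction is uncertain. For exercise in WT, -0.29, it was -0.18 with TMM, -0.15 with median-of-ratios factors, -0.22 with the reduced totals and -0.46 when thinned.

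The level in neurons as a percentage of oligodendrocytes, 2.81% in the knock-in with exercise, was 2.89% with all doublets kept, 2.69% at resolution 2.0, 2.67% with 4000 variable genes, 2.64% with the 9 genes kept, 3.99% when thinned and 3.90% as a mean over nuclei. In the knock-in without exercise, 1.78%, it was 1.69% from 1000 genes per nucleus, 1.87% with all doublets kept, 1.96% at resolution 2.0, 2.10% when thinned and 2.09% as a mean. In WT with exercise it was 1.38%, 1.37% and 1.44%, and in WT without exercise 1.66%, 1.82% and 1.77%, with all doublets kept, thinned and as a mean. The cause of these shifts was not tested. Intervals cover counting error only, and 4 committed-OPC-like nuclei and 25 microglia in WT with exercise limit what can be read there.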
